A study of Mus musculus with 18 samples.

Results

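The step from preMegE to preCFU-E was followed in bone marrow cells without Ptbp1. The comparison set the 3 libraries labelled preCFU-E KO against the 3 labelled preMegE KO, 6 of the 18 libraries of the series, and the matching step in WT cells used 6 more, 3 of preCFU-E WT and 3 of preMegE WT. All animals were C57BL/6 mice, the KO ones Ptbp1 -/- and the WT ones Ptbp1 fl/fl, so that the WT animals carry the loxP-flanked allele. The promoter that drives Cre, the way and time of deletion, the age of the animals and any pooling of animals are not stated in the labels, which call the libraries of a group biological replicates. Both populations were sorted as cells that lack lineage markers, Sca-1, CD41 and FcgRII/III and carry c-kit and CD150. Cells with CD105 were taken as preCFU-E, and cells without it as preMegE.

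The preMegE is a progenitor that can still give both megakaryocytes and red cells, and the preCFU-E is its next erythroid descendant, which comes before the colony-forming erythroid cell. Commitment to red cells in mouse marrow is known to involve the transcription factors GATA1 and KLF1, the erythropoietin receptor, heme and iron genes and rapid division, while FLI1 and GATA2 belong to the megakaryocyte and stem cell side. PTBP1 is an RNA-binding protein that binds pyrimidine tracts in pre-mRNA and mostly represses the exons beside them. The comparison asks which parts of the erythroid step still run in cells without it.

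Total RNA was amplified and sequenced, and the deposited files give Salmon's estimated reads per transcript, summed here per gene of the GENCODE M21 annotation (GRCm38). Library totals were 20435465, 25146474 and 23853540 estimated reads for preCFU-E KO and 17545534, 16412057 and 22919390 for preMegE KO, and mitochondrial rRNA made up 12.7% to 28.8% of preCFU-E KO reads and 17.8% to 25.8% of preMegE KO reads. Levels are CPM (counts scaled to a common library size) after TMM scaling, which sets libraries to a common centre of most genes. By the biological coefficient of variation over genes, the preMegE KO libraries varied more among themselves than the preCFU-E KO libraries, at 0.305 against 0.12. Within preCFU-E KO, library 3 held 12.7% mitochondrial rRNA and libraries 1 and 2 held 28.8% and 27%, and a chi-square test of raw counts gave values per degree of freedom of 159 and 140 for the pairs with library 3 and 16.1 for the other pair, against at most 49.7 in preMegE KO. The library preMegE KO 1 stood apart at -82.3 on the second principal component, which held 8.85% of the variance. The other 11 libraries lay between -13.5 and 28.8 there. For some results, values without preMegE KO 1 are given as well. In sorted bulk cells, fewer cells of a type and less RNA per cell cannot be told apart.

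The targeted gene was lower in every KO library than in every WT library. Ptbp1 (chromosome 10, 79854427 to 79864771) had 260, 263 and 270 CPM in preCFU-E KO and 175, 166 and 207 CPM in preMegE KO, against 951, 1086 and 1162 CPM in preCFU-E WT and 537, 627 and 695 CPM in preMegE WT. Reads remained in KO cells, and the labels do not say which exons are deleted, so the gene total also holds reads outside the deleted part. The transcript Ptbp1-213, annotated as a retained intron, held 26%, 14.3% and 25.1% of the Ptbp1 TPM in preCFU-E KO and 21.4%, 29.2% and 30.9% in preMegE KO, and at most 0.203% in any WT library. Between the populations, Ptbp1 rose in both genotypes, by 0.53 (SE 0.12) on the log2 scale in KO cells (edgeR adjusted p = 0.0012) and by 0.78 (SE 0.12) in WT cells (edgeR adjusted p = 2.94e-05).

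The sort labels were set against marker genes. Eng, which encodes CD105, was part of the gate, and its 134, 131 and 157 CPM in preCFU-E KO against 109, 77.1 and 119 CPM in preMegE KO check the sort and are no finding. Of the erythroid markers, Klf1, Gata1, Epor, Tfrc, Car1, Car2, Rhag and Ermap were all higher in every preCFU-E KO library than in every preMegE KO library, and of the preMegE markers, Slamf1, Gata2, Pf4, Itga2b, Cd34 and Fli1 were all lower; of all genes tested, 62.1% were separate in this way. Slamf1 encodes CD150 and Itga2b encodes CD41, on which both populations were gated alike.

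Promoters are shown for 4 genes that rose over the KO step and for 1 platelet gene that fell, because GATA and KLF factors bind short motifs near erythroid start sites. Each run holds 300 bases of GRCm38.p6 from RefSeq, from 250 bases before the gene's start to 50 after it, in the direction of transcription. Capitals mark the motif of GATA factors, AGATAA, and that of KLF factors, CACACCC. Both were searched on both strands, and TTATCT and GGGTGTG are their reverse complements; the motifs do not overlap in these runs. The windows are Pklr chr3:89135892-89136191 on the plus strand, Rhd chr4:134864286-134864585 on the plus strand, Klf1 chr8:84901732-84902031 on the plus strand, Epor chr9:21963527-21963826 on the minus strand and Pf4 chr5:90772185-90772484 on the plus strand.
Pklr: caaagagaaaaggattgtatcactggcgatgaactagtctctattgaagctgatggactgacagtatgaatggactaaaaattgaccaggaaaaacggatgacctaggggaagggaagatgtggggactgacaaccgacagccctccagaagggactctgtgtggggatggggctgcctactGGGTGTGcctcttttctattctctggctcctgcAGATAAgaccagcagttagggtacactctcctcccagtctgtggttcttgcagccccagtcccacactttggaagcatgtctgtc
Rhd: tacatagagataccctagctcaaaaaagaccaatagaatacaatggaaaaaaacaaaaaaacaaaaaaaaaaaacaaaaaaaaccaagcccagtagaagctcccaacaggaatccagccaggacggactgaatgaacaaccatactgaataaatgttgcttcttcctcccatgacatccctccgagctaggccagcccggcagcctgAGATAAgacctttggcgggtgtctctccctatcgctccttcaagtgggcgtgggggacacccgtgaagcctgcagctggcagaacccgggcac
Klf1: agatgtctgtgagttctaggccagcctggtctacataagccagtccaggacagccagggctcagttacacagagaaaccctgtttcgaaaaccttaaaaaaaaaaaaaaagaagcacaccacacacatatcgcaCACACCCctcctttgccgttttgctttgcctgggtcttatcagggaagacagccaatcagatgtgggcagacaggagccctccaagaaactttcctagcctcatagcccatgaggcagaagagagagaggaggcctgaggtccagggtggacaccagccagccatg
Epor: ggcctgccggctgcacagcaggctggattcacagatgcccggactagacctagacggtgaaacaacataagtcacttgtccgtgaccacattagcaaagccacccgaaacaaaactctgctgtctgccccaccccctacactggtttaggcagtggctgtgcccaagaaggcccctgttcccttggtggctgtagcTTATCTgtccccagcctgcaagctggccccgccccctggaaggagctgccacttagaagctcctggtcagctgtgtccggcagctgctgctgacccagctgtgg
Pf4: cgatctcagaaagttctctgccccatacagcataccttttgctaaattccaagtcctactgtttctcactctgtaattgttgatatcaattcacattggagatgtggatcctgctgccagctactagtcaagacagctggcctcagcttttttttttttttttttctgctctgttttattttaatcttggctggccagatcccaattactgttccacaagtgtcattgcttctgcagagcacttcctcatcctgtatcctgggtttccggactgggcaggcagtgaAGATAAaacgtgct

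Pklr held both motifs, Rhd and Epor held AGATAA, Klf1 held CACACCC, and Pf4, which fell, also held AGATAA. Every promoter shown thus held a motif, and most promoters of genes with large changes did not. For the 12 largest increases of the KO step, 10 promoters matched, of which 2 held AGATAA and 2 held CACACCC. For the 12 largest decreases, 10 matched, of which 2 held AGATAA and 1 held CACACCC. Of the 17144 gene symbols tested, 11030 matched a promoter, and 7.43% of these held AGATAA and 8.31% held CACACCC. Among genes higher in preCFU-E KO the shares were 5.89% and 7.99% of 3853 promoters, and among genes lower in preCFU-E KO they were 8.33% and 9.9% of 2798. AGATAA was found in 5 of 16 matched promoters of the erythroid surface list, 3 of 12 of the membrane skeleton list, 2 of 14 of the heme list, 4 of 20 of the megakaryocyte list and 0 of 53 of the ribosome biogenesis list. In the same order, CACACCC was found in 3 of 16, 0 of 12, 2 of 14, 0 of 20 and 2 of 53. A match describes these letters in this window only.

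Over the KO step, 4891 of 17159 genes tested (28.5%) were higher in preCFU-E KO and 4849 (28.3%) were lower, by edgeR's quasi-likelihood test at an adjusted p under 0.05. When a change had to exceed 1.5-fold, 2374 genes (13.8%) were higher and 2853 (16.6%) lower. The median log2 change of all genes was -0.18, and the split of the calls depended on the scaling: by library totals alone it was -0.59, with 2508 genes higher and 7465 lower, so medians of gene groups are given under that scaling as well. Without preMegE KO 1, 4775 genes were higher and 4074 lower, and 8190 of the 9740 called genes were called again. Without preCFU-E KO 3, 8166 genes were called. Every preCFU-E KO library lay on one side of every preMegE KO library in 10655 genes, and since these shares are large, a count within a gene group is read against them.

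The erythroid transcription factor list was divided: 10 of its 22 genes rose and 5 fell, with a median log2 change of 0.33 that turned to -0.08 under library totals. Klf1, the factor that drives much of the red cell gene program, had 151, 168 and 192 CPM in preCFU-E KO against 50.6, 38.3 and 67.7 CPM in preMegE KO, a log2 change of 1.70 (SE 0.16, edgeR adjusted p = 5.02e-08). No preMegE KO library reached the lowest preCFU-E KO value. Gata1, the central erythroid and megakaryocyte factor, had 90.3, 87.9 and 87.4 CPM in preCFU-E KO against 57, 50.4 and 60.3 CPM in preMegE KO, a rise of 0.66 (SE 0.13). Tal1, which works in a complex with GATA1, had 303, 292 and 292 CPM in preCFU-E KO against 171, 189 and 198 CPM in preMegE KO, a rise of 0.67 (SE 0.11). The calls of Gata1 and Tal1 were each lost in 3 of 18 alternatives. Klf3, a KLF factor that represses transcription and is itself a KLF1 target, rose by 1.20 (SE 0.13), and E2f4, a cell cycle factor needed for red cell expansion, rose by 1.68 (SE 0.15). Gfi1b, a repressor needed in both lineages, rose by 0.47 (SE 0.19, edgeR adjusted p = 0.0469), a call lost in 12 of 18 alternatives, with an adjusted p of 0.163 without preMegE KO 2. Among those that fell were Nfe2, the factor of platelet formation and globin control, with a log2 change of -1.09, and Bach1, a heme-sensitive repressor, with one of -1.07.

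**Figure D1:**
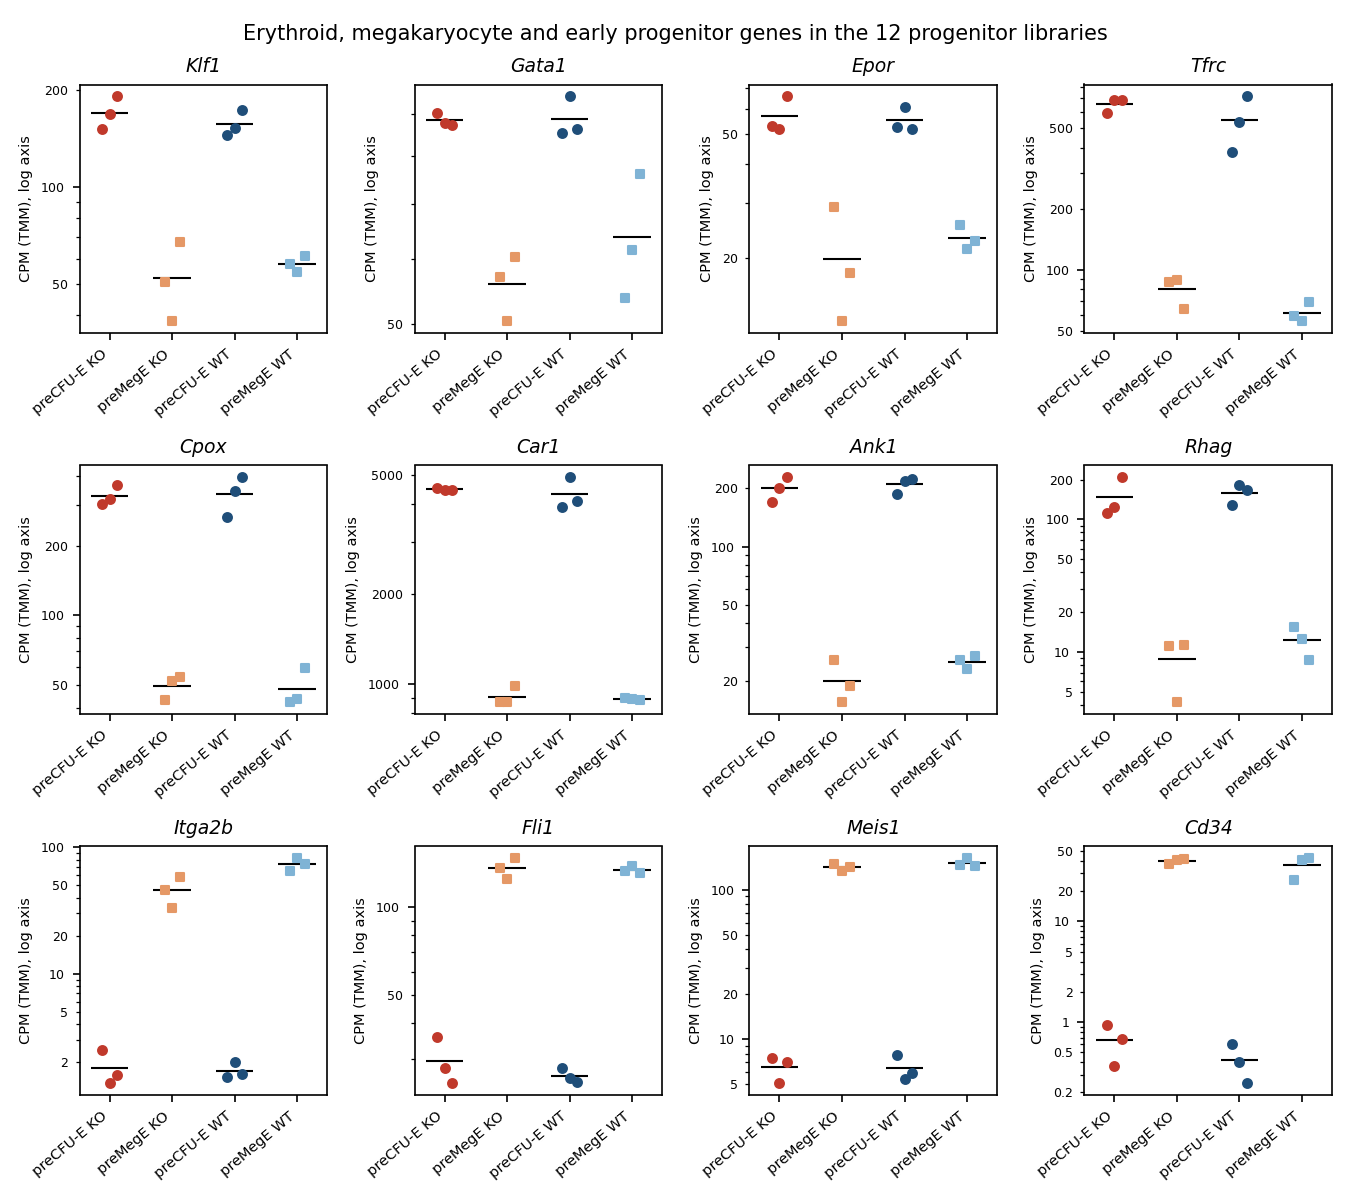
Level of 12 genes in each library (CPM after TMM scaling, log axis that differs between panels) for preCFU-E KO, preMegE KO, preCFU-E WT and preMegE WT, with points for the 3 libraries of a group and a bar for their mean. In all 12 panels the preCFU-E KO points lie apart from the preMegE KO points, above them for the 8 erythroid genes (Klf1 at 151 to 192 CPM against 38.3 to 67.7 CPM) and below them for Itga2b, Fli1, Meis1 and Cd34.

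Heme synthesis genes rose together: 15 of 18 were higher, none was lower, and the median log2 change was 1.13, or 0.73 under library totals. Cpox, which makes protoporphyrinogen from coproporphyrinogen, had 302, 317 and 365 CPM in preCFU-E KO against 43.1, 52.2 and 54.2 CPM in preMegE KO, a log2 change of 2.72 (SE 0.16, edgeR adjusted p = 1.78e-10). The values of the groups did not overlap. Alad, the enzyme of the second step of the pathway, rose by 2.05 (SE 0.14), Urod, the uroporphyrinogen decarboxylase, by 0.96 (SE 0.13), and Fech, which puts iron into the ring, by 2.07 (SE 0.14). Alas2, the erythroid form of the first enzyme, was barely detected, at 0.743, 0.365 and 0.589 CPM in preCFU-E KO against 2.84, 1.04 and 0.707 CPM in preMegE KO (edgeR adjusted p = 0.052). Alas1, the form used in most tissues, rose by 0.58 (edgeR adjusted p = 0.00859).

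Of 22 iron genes, 17 rose and 1 fell, with a median of 0.95 (0.54 under library totals). Tfrc, the transferrin receptor, had 591, 689 and 690 CPM in preCFU-E KO against 87.5, 88.8 and 64.1 CPM in preMegE KO, a log2 change of 3.04 (SE 0.20, edgeR adjusted p = 2.91e-09). Slc40a1, which exports iron from the cell, had 68.3, 62.6 and 70 CPM in preCFU-E KO against 14.2, 14 and 13.5 CPM in preMegE KO, and Fth1, the ferritin heavy chain, had 451, 586 and 568 CPM in preCFU-E KO against 167, 214 and 196 CPM in preMegE KO. All 3 genes were separate between the groups. Ncoa4, the receptor that sends ferritin to autophagy, was the gene that fell, with a log2 change of -0.76 (SE 0.13). Slc25a37, the mitochondrial iron importer mitoferrin-1, had 55.5, 65.4 and 64.5 CPM in preCFU-E KO against 59.7, 58 and 53.2 CPM in preMegE KO, which overlap (edgeR adjusted p = 0.464).

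Globins were near the detection limit in both populations. Of 10 globin genes, 4 passed the filter on low counts and none was called. Hbb-bt had 2.1, 0.782 and 1.86 CPM in preCFU-E KO against 1.67, 1.1 and 1.73 CPM in preMegE KO, and Hbb-bs had 2.1, 1.88 and 0.363 CPM against 1.06, 0.406 and 2.55 CPM in the same groups. Hba-a1 and Hba-a2, which are near-identical copies whose reads Salmon may divide between them, stayed at 1.04 CPM or less in the 6 KO libraries.

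Red cell membrane and cytoskeleton genes exchanged members: 11 of 18 in the membrane skeleton list rose and 5 fell (median 0.60, or 0.19 under library totals). Ank1, the ankyrin that ties the skeleton to band 3, had 171, 200 and 230 CPM in preCFU-E KO against 25.8, 15.6 and 19 CPM in preMegE KO, a log2 change of 3.32 (SE 0.17, edgeR adjusted p = 1.52e-11). Sptb, the erythroid beta spectrin, rose by 3.30 (SE 0.27). Spectrins of other tissues fell, Sptan1 with 2.85, 2.09 and 1.45 CPM in preCFU-E KO against 62.5, 77.2 and 63.8 CPM in preMegE KO, and Sptbn1 with 59.7, 55.3 and 45.8 CPM in preCFU-E KO against 171, 211 and 167 CPM in preMegE KO. Sptan1 changed by -5.02 (SE 0.21) and Sptbn1 by -1.77 (SE 0.15) on the log2 scale. Of 16 general cytoskeleton genes, 5 rose and 8 fell (median -0.41, or -0.82 under library totals), among them Zyx, the focal adhesion protein zyxin, with a log2 change of -2.73 (SE 0.18).

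Of 24 erythroid surface and gas exchange genes, 15 rose and 4 fell (median 1.28, or 0.89 under library totals). Car1, the carbonic anhydrase that marks early erythroid cells, had 4521, 4470 and 4472 CPM in preCFU-E KO against 872, 870 and 987 CPM in preMegE KO, a log2 change of 2.30 (SE 0.12, edgeR adjusted p = 1.78e-11). Rhag, a Rh-associated membrane protein, had 111, 124 and 210 CPM in preCFU-E KO against 11.2, 4.18 and 11.3 CPM in preMegE KO, a log2 change of 4.04 (SE 0.42). Ermap, which carries the Scianna blood group in humans, had 877, 908 and 1080 CPM in preCFU-E KO against 77.6, 63.4 and 80.4 CPM in preMegE KO. The groups were separate in all 3. Cd24a, a surface glycoprotein of dividing erythroid precursors, rose by 2.30 (SE 0.19). Cd47, which restrains uptake by macrophages, was lower, with 691, 548 and 610 CPM in preCFU-E KO against 934, 987 and 1056 CPM in preMegE KO.

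Erythropoietin signaling did not move as a block: 5 of 17 genes rose and 7 fell (median -0.22, or -0.63 under library totals). Epor, the receptor, had 53.1, 52 and 66.3 CPM in preCFU-E KO against 29.2, 12.5 and 17.9 CPM in preMegE KO, a log2 change of 1.52 (SE 0.22, edgeR adjusted p = 2.86e-05). Its kinase Jak2 was lower, with 135, 115 and 123 CPM in preCFU-E KO against 158, 180 and 161 CPM in preMegE KO, a log2 change of -0.42 (SE 0.11). Stat5a, the transcription factor below it, had 117, 111 and 120 CPM in preCFU-E KO against 114, 109 and 122 CPM in preMegE KO, which overlap. Lyn, a kinase of the SRC family, changed by -0.89 (SE 0.11). Survival genes of the BCL2 family went both ways: Bcl2 changed by -1.67 (SE 0.13) and Bcl2l1, which encodes BCL-XL, by -1.30 (SE 0.25), while the pro-death genes Bak1 and Bid rose by 1.14 (SE 0.15) and 1.13 (SE 0.14). Of the 12 genes of that family, 4 rose and 5 fell (median -0.21, or -0.61 under library totals).

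The megakaryocyte program was lower in preCFU-E KO in nearly every measured gene. Of 28 megakaryocyte and platelet genes listed, 25 passed the filter on low counts, of which 23 fell and none rose (median -4.27, or -4.68 under library totals), and of 12 megakaryocyte transcription factors tested, 10 fell and 1 rose (median -1.95, or -2.37). Itga2b, the platelet integrin chain CD41, had 2.48, 1.36 and 1.59 CPM in preCFU-E KO against 46, 33.3 and 58.8 CPM in preMegE KO, a log2 change of -4.69 (SE 0.23, edgeR adjusted p = 2.66e-11). Plek, the platelet protein pleckstrin, had 4.58, 0.939 and 1.72 CPM in preCFU-E KO against 164, 202 and 168 CPM in preMegE KO. In both genes the groups were far apart. Fli1, the ETS factor of the megakaryocyte program, had 35.8, 27.9 and 24.8 CPM in preCFU-E KO against 136, 125 and 148 CPM in preMegE KO, a log2 change of -2.21 (SE 0.13). Mef2c changed by -2.37 (SE 0.13) and Runx1, a factor shared by stem cells and platelets, by -1.48 (SE 0.12). The factor that rose was Srf, at 0.51 (SE 0.21, edgeR adjusted p = 0.0482), with overlapping groups and a call lost in 11 of 18 alternatives.

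Of 28 stem and early progenitor genes, 24 passed the filter, of which 21 fell and 1 rose (median -2.20, or -2.61 under library totals). Meis1, a homeobox factor of stem cells, had 7.49, 5.06 and 7.07 CPM in preCFU-E KO against 149, 132 and 141 CPM in preMegE KO, a log2 change of -4.43 (SE 0.16, edgeR adjusted p = 1.02e-12). Cd34, the stem and progenitor surface protein, had 0.929, 0.365 and 0.68 CPM in preCFU-E KO against 37.5, 40.5 and 41.8 CPM in preMegE KO. Gata2, which GATA1 replaces at many sites in erythroid cells, had 135, 123 and 107 CPM in preCFU-E KO against 502, 383 and 565 CPM in preMegE KO. The groups of all 3 genes were separate. Mycn and Myc went opposite ways: Mycn changed by -6.41 (SE 0.29), and Myc, the growth regulator, rose by 0.96 (SE 0.12), with 639, 605 and 621 CPM in preCFU-E KO against 315, 269 and 374 CPM in preMegE KO. Mllt3, a subunit of the super elongation complex, was the list's gene that rose, by 0.83 (SE 0.14).

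Markers of granulocytes, mast cells and endothelial cells were mostly called lower in preCFU-E KO. Those of macrophages were called in both directions, though their median change was also negative. The 24 granulocyte and monocyte genes summed to 72.3, 41.5 and 42.1 CPM in preCFU-E KO against 407, 374 and 433 CPM in preMegE KO, with 20 lower and none higher, and their median of -2.88 was -3.30 under library totals and -2.16 without preMegE KO 1. Among them Lyz2, the lysozyme of myeloid cells, had 2.6, 2.29 and 1.5 CPM in preCFU-E KO against 51.3, 75.4 and 76.4 CPM in preMegE KO, and Spi1, the myeloid factor PU.1, had 5.26, 3.65 and 4.26 CPM against 22.5, 15.6 and 22.1 CPM in the same groups. Elane, the neutrophil elastase, had 1.55, 0.0521 and 0.181 CPM in preCFU-E KO against 5.37, 0.0581 and 2.55 CPM in preMegE KO, which overlap. Of 9 mast cell genes 7 fell and 1 rose, of 12 macrophage and dendritic genes 4 fell and 3 rose (3 and 1 without preMegE KO 1), of 14 lymphoid genes 6 fell (7 without that library), and of 9 endothelial and stromal genes 7 fell and 1 rose (5 and 1 without that library). The medians of these 4 lists were -2.34, -1.19, -1.59 and -2.05, or -2.74, -1.61, -2.00 and -2.48 under library totals. Without preMegE KO 1 they were -2.05, -1.23, -1.84 and -1.69. The summed levels were 826 to 917 CPM in preCFU-E KO against 1290 to 1510 CPM in preMegE KO for the mast cell list, 139 to 171 against 137 to 241 CPM for macrophages, 5.4 to 8.42 against 21.4 to 46.7 CPM for lymphoid cells, and 36 to 44.1 against 125 to 155 CPM for endothelial cells, so that the macrophage sums overlapped. Of the 14 mast cell, 21 macrophage, 25 lymphoid and 16 endothelial genes listed, the rest did not pass the filter on low counts, among them Adgre1, C1qa and C1qb for macrophages and Cd3e and Ms4a1 for lymphocytes. The part of such cells in the other decreases was not tested.

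The largest single changes came from several roles. By the naming rule, the increases were led by Sphk1, a sphingosine kinase, with 96.3, 113 and 146 CPM in preCFU-E KO against 0.253, 0.522 and 1.69 CPM in preMegE KO, a log2 change of 7.05 (SE 0.44). Next came Atp7b, a copper-transporting ATPase, at 6.92, and Camsap2, a protein of microtubule minus ends, at 6.45. Rhd, the Rh blood group D gene, rose by 5.21 (SE 0.28), Mt2, a metallothionein, by 5.10 (SE 0.20), and Ccne1, the cyclin E1 gene of S phase entry, by 4.23 (SE 0.32). Tmem56, Nxpe2, Pklr, Paqr9, Zbtb46 and Rhag completed the 12, with rises of 4.04 to 5.60. The decreases were led by Cd180, a Toll-like receptor relative of lymphoid and myeloid cells, with 0.991, 0.521 and 0.408 CPM in preCFU-E KO against 78, 65.4 and 75.8 CPM in preMegE KO, a log2 change of -6.88 (SE 0.29). Behind it came Mycn, Plek, Serpina3g, Cd34, Kcnc1, F2rl2, Itih5, Cd93, Sptan1, Lyz2 and Serpinb1a, at -6.41 to -4.81. None of these 24 calls was lost in any alternative run, which is largely set by picking called genes with the largest changes.

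Cell division genes were higher in preCFU-E KO. Of 52 DNA replication genes, 50 rose and none fell (median 1.02, or 0.61 under library totals), and of 55 genes of G2 and mitosis, 54 rose and 1 fell (median 1.29, or 0.89). Mcm2, a subunit of the replicative helicase, had 293, 307 and 343 CPM in preCFU-E KO against 129, 168 and 159 CPM in preMegE KO, a log2 change of 1.05 (SE 0.16, edgeR adjusted p = 1.69e-05). Ccnb1, cyclin B1, had 237, 219 and 232 CPM in preCFU-E KO against 56.6, 52.7 and 39.3 CPM in preMegE KO, a log2 change of 2.21 (SE 0.15). Both genes were separate between the groups. Cdc25b, a phosphatase that activates CDK1, was the mitotic gene that fell, with a log2 change of -0.62 (SE 0.23), overlapping groups and a call lost in 7 of 18 alternatives. Of 17 G1 regulators, 4 rose and 4 fell (median -0.18, or -0.60 under library totals): Cdk4 rose by 1.10 (SE 0.13), and the inhibitors Cdkn1a and Cdkn1b, which encode p21 and p27, changed by -1.63 (SE 0.23) and -1.37 (SE 0.16). Of 41 replication-dependent histone genes, whose copies are much alike, 24 rose and 2 fell (median 0.80, or 0.39 under library totals, and 1.12 without preMegE KO 1).

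In the machinery of protein synthesis, the median change of the assembly factors was larger than that of the ribosomal proteins themselves; the difference between these lists was not tested. Of 64 ribosome biogenesis genes, 62 rose and none fell (median 1.21, or 0.80 under library totals). Npm1, the nucleolar chaperone nucleophosmin, had 4227, 5242 and 4972 CPM in preCFU-E KO against 1436, 1963 and 1636 CPM in preMegE KO, a log2 change of 1.52 (SE 0.14, edgeR adjusted p = 4.26e-08), and Fbl, the methyltransferase fibrillarin, rose by 1.16 (SE 0.11). Of 49 large-subunit ribosomal protein genes, 35 rose and none fell, and of 34 small-subunit genes, 17 rose and 1 fell. Their medians of 0.39 and 0.31 turned to -0.01 and -0.11 under library totals, where the median of all genes was -0.59. Rpl7a had 1301, 1371 and 1330 CPM in preCFU-E KO against 636, 662 and 753 CPM in preMegE KO, a log2 change of 0.96 (SE 0.13). Rps19, mutated in many cases of human Diamond-Blackfan anemia, had 286, 308 and 292 CPM in preCFU-E KO against 280, 236 and 289 CPM in preMegE KO (edgeR adjusted p = 0.302). Rps27 was the gene that fell, with a log2 change of -0.37 (SE 0.15) that was no longer called in 7 of 18 alternatives. Ribosomal protein genes have many processed pseudogenes, between which Salmon may divide reads.

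Other parts of protein supply rose with them. All 22 cytosolic tRNA synthetases rose (median 1.41), as did 46 of 48 translation factors (median 0.99, with 1 lower), 72 of 77 mitochondrial ribosomal proteins (median 1.01), 35 of 37 proteasome subunits (median 1.19) and 29 of 36 chaperones (median 1.15). Under library totals these medians were 1.00, 0.58, 0.60, 0.78 and 0.76. Without preMegE KO 1, 24 chaperones rose, with a median of 0.99. Iars, the isoleucyl-tRNA synthetase, had 424, 499 and 515 CPM in preCFU-E KO against 149, 192 and 163 CPM in preMegE KO. Hspd1, the mitochondrial chaperonin, had 1495, 2140 and 2044 CPM in preCFU-E KO against 412, 644 and 537 CPM in preMegE KO, a log2 change of 1.83 (SE 0.26). In both, the groups did not overlap. The heat shock genes Hspa8 and Hsp90aa1 rose by 1.22 (SE 0.46) and 1.62 (SE 0.52), and without preMegE KO 1 their edgeR adjusted p-values were 0.136 and 0.0735. Among 28 genes of the integrated stress response, 19 rose and 3 fell (median 0.59, or 0.17 under library totals): Asns, the asparagine synthetase, had 78.8, 124 and 125 CPM in preCFU-E KO against 8, 9.17 and 7.93 CPM in preMegE KO, a log2 change of 3.71 (SE 0.21), and Atf4, the factor at the head of the response, rose by 1.24 (SE 0.14). Ddit3, which encodes CHOP, did not pass the test (edgeR adjusted p = 0.115).

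Energy genes rose too: 72 of 76 nuclear genes of oxidative phosphorylation were higher and none lower (median 1.11, or 0.70 under library totals), and 15 of 23 glycolysis genes rose while 3 fell (median 0.65, or 0.25). Atp5b, a catalytic subunit of ATP synthase, had 6048, 6666 and 7446 CPM in preCFU-E KO against 1867, 2164 and 2557 CPM in preMegE KO, a log2 change of 1.61 (SE 0.16, edgeR adjusted p = 7.45e-08). The pyruvate kinase genes exchanged places. Pklr, whose promoter held both motifs and which makes the red cell and liver enzyme, had 135, 160 and 186 CPM in preCFU-E KO against 9.72, 3.25 and 4.59 CPM in preMegE KO, a log2 change of 4.77 (SE 0.32). Pkm, the form of most tissues and a known splicing target of PTBP1, had 11.3, 7.51 and 9.7 CPM in preCFU-E KO against 60.3, 74.8 and 95.5 CPM in preMegE KO, a log2 change of -3.02 (SE 0.29). Slc2a1, the glucose transporter GLUT1, was lower, with 3.53, 2.56 and 3.13 CPM in preCFU-E KO against 11.7, 11.4 and 10.2 CPM in preMegE KO.

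Among 25 cholesterol synthesis genes 11 rose and 3 fell, with a median of 0.32 that was -0.10 under library totals, and among 24 polycomb and DNA methylation genes 7 rose and 6 fell, with a median of 0.02 that was -0.39. Ezh2, the polycomb methyltransferase, rose by 0.81 (SE 0.13), and the DNA demethylase genes Tet1 and Tet2 changed by -1.16 (SE 0.14) and -0.85 (SE 0.12). Of 28 p53 targets 5 rose and 9 fell, of 21 autophagy genes 4 rose and 3 fell, and of 31 interferon genes 1 rose and 10 fell. The medians of these 3 lists were -0.04, -0.03 and -0.20, or -0.43, -0.42 and -0.61 under library totals. Of 13 immediate early genes 6 fell and none rose (median -1.72, or -2.12 under library totals, and -1.24 without preMegE KO 1). Among 45 hnRNP and SR splicing factors 36 rose and 4 fell (median 0.67, or 0.28 under library totals), with Srsf1 higher by 1.15 (SE 0.19) and Celf2, a splicing regulator, lower at -1.62 (SE 0.14).

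**Figure D2:**
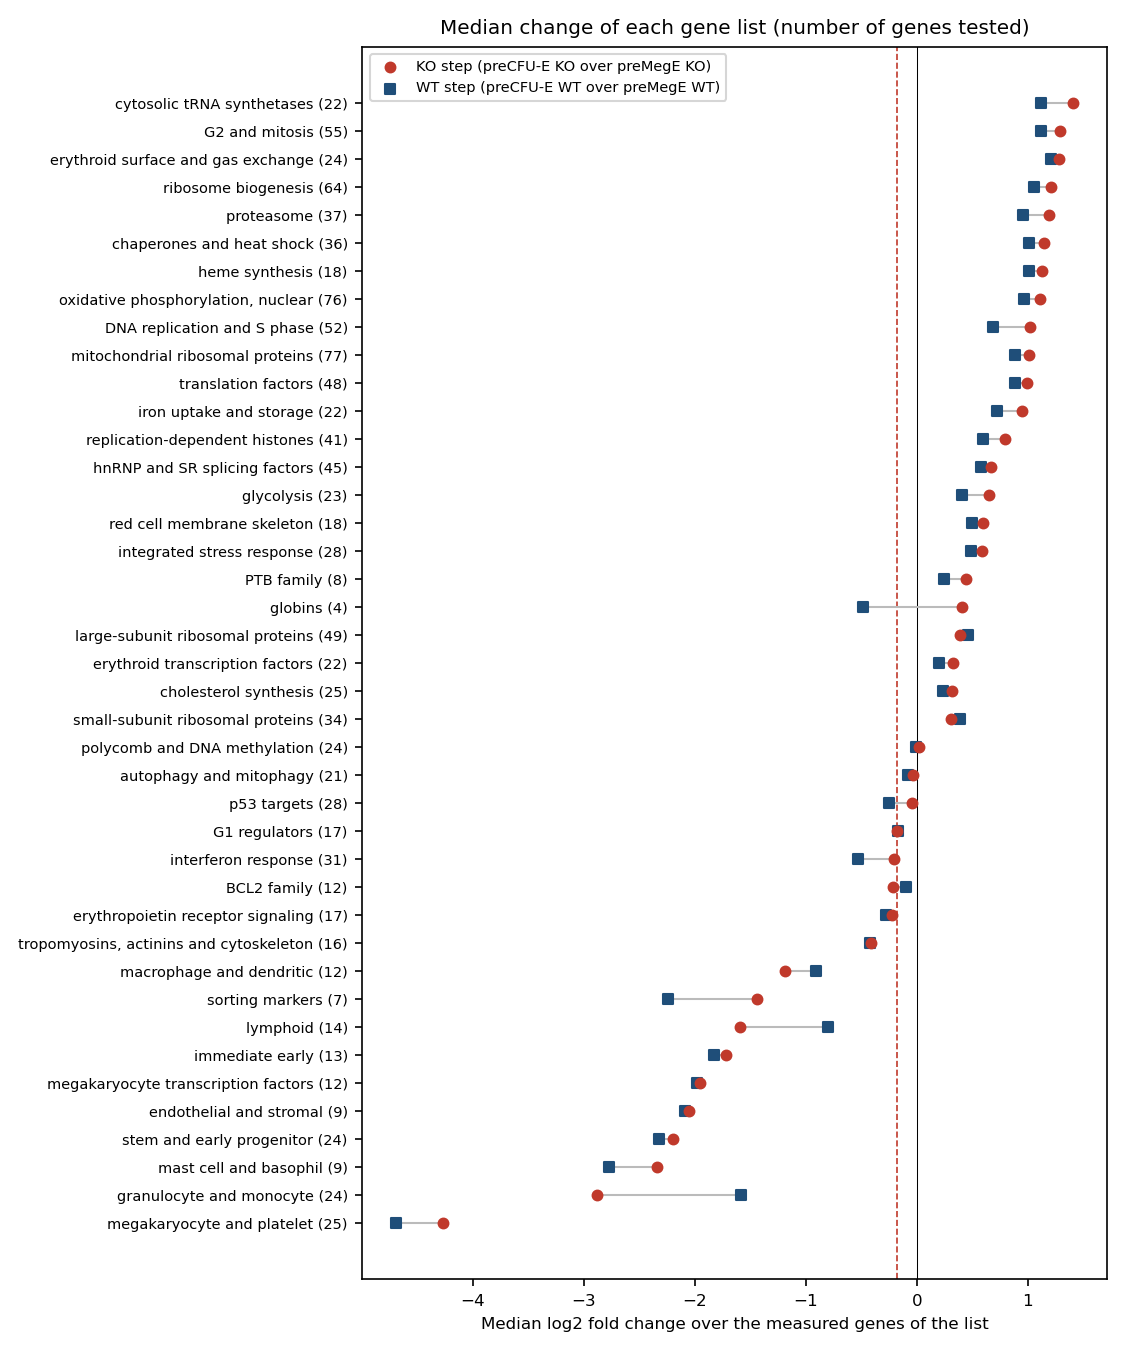
Median log2 fold change of each gene list over its genes tested (number in brackets), with circles for the KO step and squares for the WT step; the dashed line marks the median of all genes in the KO step, -0.18. Circle and square lie close together for most lists, from 1.41 in KO and 1.12 in WT for tRNA synthetases to -4.27 in KO and -4.69 in WT for megakaryocyte genes. Scaled by library totals, the KO medians of erythroid transcription factors, large-subunit and small-subunit ribosomal proteins, cholesterol synthesis and polycomb genes lie below 0.

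The same step in WT cells called 4336 genes higher (25.3%) and 3356 lower (19.6%). Of the genes called in KO cells, 4041 were also called higher in WT cells, which is 82.6% of the KO and 93.2% of the WT increases, and 2832 were also called lower, which is 58.4% of the KO and 84.4% of the WT decreases. The gene with opposite calls was Ptbp2. Of the 849 KO increases without a WT call, 815 had a positive WT change, and of the 2017 KO decreases without a WT call, 1913 had a negative one. In the other direction, 295 WT increases and 523 WT decreases were not called in KO cells, and 282 and 500 of them had the same sign there. Across the 9508 genes whose log2 CPM averaged 2 or more, Pearson's r between the KO and the WT step was 0.96 and Spearman's rho 0.95, and over all genes tested Pearson's r was 0.84; genes are not independent replicates, and the steps share no library.

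**Figure D3:**
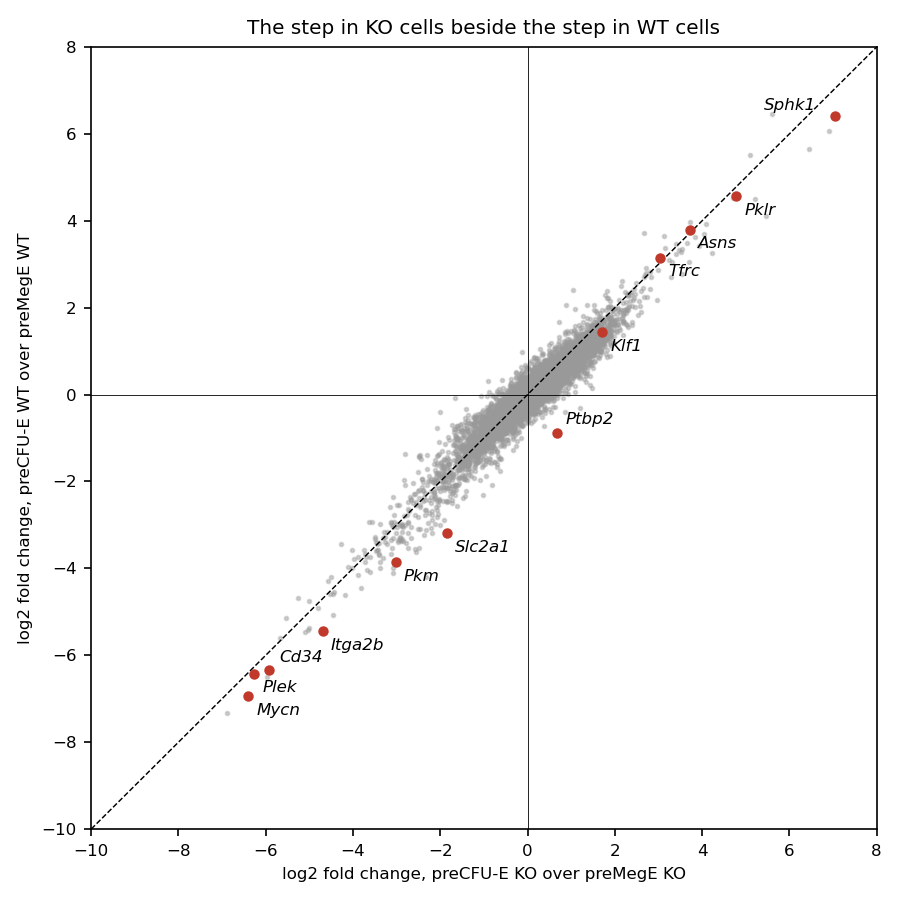
Log2 fold change of 9508 genes, with preCFU-E KO over preMegE KO on the horizontal axis and preCFU-E WT over preMegE WT on the vertical axis, and a dashed line where both are equal. Most points follow the line, and Ptbp2, at 0.68 in KO and -0.88 in WT, lies apart from it.

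The difference between the steps was tested as an interaction, in which 1 of 17159 genes passed (0.00583%), while 971 (5.66%) had an unadjusted p under 0.05, 525 with a positive and 446 with a negative difference. The median standard error of the difference was 0.21 on the log2 scale for the 9508 more abundant genes, and the 95% interval lay within 1 log2 unit either side of 0 for 8283 of them (87.1%) and for 8426 of all 17159 (49.1%), so that a larger difference lay outside the interval for these and could not be told for the rest. For Klf1 the difference was 0.26, with an interval of -0.20 to 0.72, as its WT step was 1.44 beside 1.70 in KO cells. For Gata1 it was 0.18 (-0.19 to 0.55), for Tfrc -0.12 (-0.67 to 0.43), for Car1 0.03 (-0.30 to 0.36), for Ank1 0.26 (-0.19 to 0.72) and for Fli1 0.14 (-0.24 to 0.52). An interval that holds 0 does not show that the steps are equal.

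**Figure D4:**
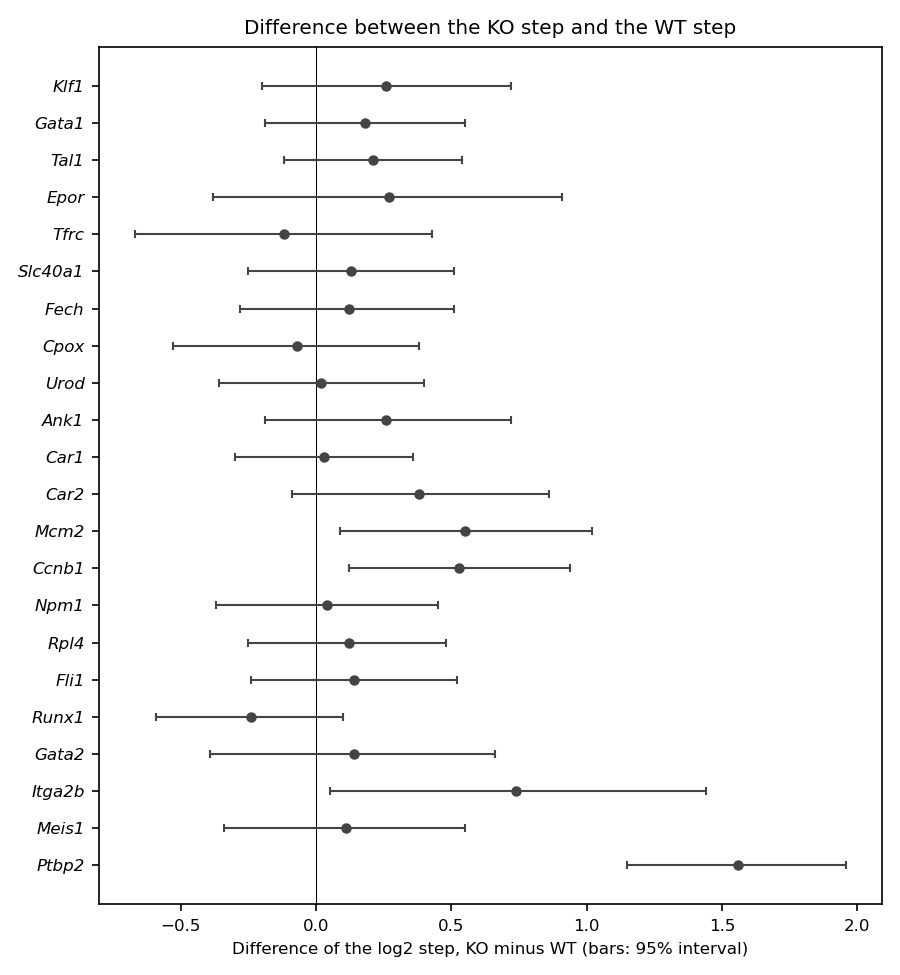
Difference of the log2 step, KO minus WT, for 22 genes, with points for the estimate and bars for the 95% interval. Ptbp2, at 1.56 with bars from 1.15 to 1.96, has its whole bar past 1. Of the other 21 bars, those of Mcm2, Ccnb1 and Itga2b lie above 0, and none of these genes passed the correction.

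The called gene was Ptbp2 (chromosome 3, 119718742 to 119784466), a paralog of Ptbp1 best known from neurons, whose transcript PTBP1 is known to keep low by exon skipping. Ptbp2 had 113, 123 and 122 CPM in preCFU-E KO and 69.2, 79.4 and 75.1 CPM in preMegE KO, against 9.76, 9.33 and 6.7 CPM in preCFU-E WT and 17.1, 17 and 13.6 CPM in preMegE WT. It rose over the KO step by 0.68 (SE 0.13, edgeR adjusted p = 0.000203) and fell over the WT step with a log2 change of -0.88 (edgeR adjusted p = 4.37e-05). The difference was 1.56 (SE 0.19, 95% interval 1.15 to 1.96, edgeR adjusted p = 0.0021). It was called in 20 of 22 alternatives, with values of 1.42 to 1.65, and missed the threshold with length-scaled counts (adjusted p = 0.52) and in the fit of all 18 libraries (adjusted p = 0.0576). The KO rise itself depended on the scale, since the mean TPM of Ptbp2 was 57.5 in preCFU-E KO and 54 in preMegE KO. Ptbp3, the third paralog, had 875, 806 and 774 CPM in preCFU-E KO against 881, 1057 and 945 CPM in preMegE KO (edgeR adjusted p = 0.0888). Of 8 genes of the PTB family and its partners, 5 rose in the KO step and none fell (median 0.44, or 0.03 under library totals), among them Hnrnpll by 1.29 (SE 0.20).

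**Figure D5:**
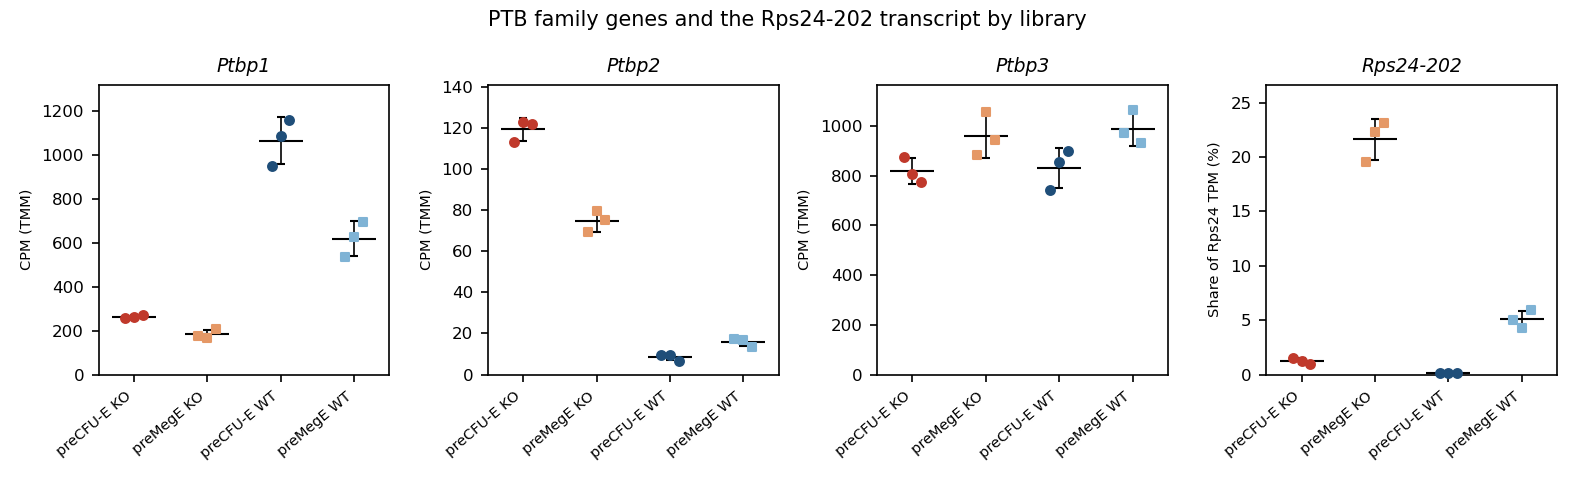
Level of Ptbp1, Ptbp2 and Ptbp3 (CPM after TMM scaling) and the share of Rps24 TPM held by the transcript Rps24-202 (percent) in each library, with points for libraries and bars for the mean and SD of 3. Ptbp2 is at 113 to 123 CPM in preCFU-E KO and 69.2 to 79.4 CPM in preMegE KO, and at 6.7 to 17.1 CPM in WT. Rps24-202 is at 1.01% to 1.49% in preCFU-E KO and 19.5% to 23.1% in preMegE KO.

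Next in the order of unadjusted p, and named after their values were seen, came Plxdc2 with a difference of 1.86, Coro1a with 1.04, Ripk1 with -0.76, Hmga1 with 0.99, Slc2a1 with 1.34 and Gab1 with -0.79, none of which passed the correction. Coro1a, an actin regulator of blood cells, had 17.1, 12.9 and 10.4 CPM in preCFU-E KO and 70.9, 72.3 and 83.9 CPM in preMegE KO, and averaged 8.24 CPM in preCFU-E WT and 95.4 CPM in preMegE WT. Hmga1, a chromatin architecture protein, had 234, 263 and 304 CPM in preCFU-E KO and 76.2, 54.9 and 85.9 CPM in preMegE KO, and averaged 213 CPM in preCFU-E WT and 115 CPM in preMegE WT. Ripk1, a kinase of cell death signaling, had 17.5, 17.9 and 19.4 CPM in preCFU-E KO and 34.7, 28.9 and 31.7 CPM in preMegE KO, and averaged 48.9 CPM in preCFU-E WT and 50.3 CPM in preMegE WT.

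Set beside the WT step, the DNA replication list had a median of 1.02 in KO cells and 0.69 in WT cells. All 52 of its genes had a positive difference, against 8889 of the 17159 genes tested, and 16 had an unadjusted p under 0.05, but none passed the correction. A positive difference was also common in other lists, in 22 of 22 tRNA synthetases, 36 of 37 proteasome genes, 53 of 55 genes of G2 and mitosis and 59 of 64 ribosome biogenesis genes, with median differences of 0.29, 0.21, 0.21 and 0.14. The median difference of the DNA replication list was 0.33, or 0.26 under library totals, and 0.22 to 0.47 when single libraries were left out. The DNA replication list summed to 6950, 7130 and 7240 CPM in preCFU-E KO and 3450, 3910 and 3380 CPM in preMegE KO, and to 6020, 7050 and 7280 CPM in preCFU-E WT and 3590, 4410 and 5040 CPM in preMegE WT. The preCFU-E sums overlapped between genotypes, and of the preMegE sums 2 of 3 in KO lay below all 3 in WT. Mcm2, for example, had a difference of 0.55 (95% interval 0.09 to 1.02) and Mcm7, of the same helicase, had one of 0.56. Some shorter lists had a median difference of larger size: -0.96 for 14 lymphoid genes, 0.82 for 4 globins, 0.58 for 13 immediate early genes, -0.46 for 24 granulocyte genes (20 lower in KO and 11 lower in WT cells) and 0.34 for 23 glycolysis genes. With single libraries left out, these ran from -1.55 to -0.31, -0.09 to 1.42, 0.31 to 0.69, -1.06 to 0.05 and 0.20 to 0.47. The ribosomal protein lists had median differences of -0.04 for the large and -0.09 for the small subunit (-0.15 and -0.21 under library totals), and differences between lists were not tested. In the ribosomal protein lists, the intervals of all 49 and all 34 genes lay within 1 log2 unit of 0. That band is wide beside their KO steps, with medians of 0.39 and 0.31 and maxima of 0.96 and 1.04. The count therefore does not show that the KO and WT steps were alike.

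At the level of transcripts, 148 of 9988 genes tested (1.48%) changed their use over the KO step, by edgeR's diffSpliceDGE with a shift of at least 10 percentage points. Without preCFU-E KO 1, 2 or 3 the count was 88, 89 and 93. Shares rest on Salmon's division of reads between overlapping transcript models, so that a share of 0 or 100 is an estimate, not a count. Gins2-204, a retained-intron model of a replication factor gene, held 66.8%, 71.4% and 72% of the Gins2 TPM in preCFU-E KO against 24.5%, 0% and 6.35% in preMegE KO (gene adjusted p = 0.00955, called in 11 of the 12 fits that left out a library). Gins2-203, also a retained-intron model, held 13.5%, 16.6% and 14.1% in preCFU-E KO against 54.5%, 73.7% and 82.6% in preMegE KO. The shift was thus mainly from one retained-intron model to another. The protein-coding Gins2-201 averaged 14.9% in preCFU-E KO and 19.1% in preMegE KO. Tceanc2-204, a nonsense-mediated decay model, held 61.2%, 46.9% and 53.9% in preCFU-E KO against 0% in all 3 preMegE KO libraries (gene adjusted p = 0.000586). Uvssa-201 held 100%, 90.3% and 83.2% in preCFU-E KO against 0% in all 3 preMegE KO libraries, on 79 to 198 reads a library, and Lrrc61-202 held 100%, 81.1% and 81.5% against 46.7%, 17.5% and 24.5% in the same groups. Such shares can vary widely between replicates. In WT, Uvssa-201 held 53.2%, 54.7% and 14.7% in preCFU-E and 61.6%, 49.3% and 0% in preMegE. Gins2-204 held 10.3%, 43.5% and 42.1% in preMegE WT. By the same rule came Plek-202, with 100% in all 3 preCFU-E KO libraries on 74, 18 and 38 reads, against 36.3%, 30.9% and 37.6% in preMegE KO. Hacl1-202 held 62.8%, 56.8% and 72% in preCFU-E KO against 0%, 4.58% and 0% in preMegE KO. The Plek call remained in 11 and the Hacl1 call in 6 of the 12 fits that left out a library. For these transcripts and for Gins2-204, Tceanc2-204, Uvssa-201 and Lrrc61-202, the shares of the KO groups did not overlap. Since the genes were picked from the called ones by the size of the shift, this lack of overlap adds no support.

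Rps24 is a small-subunit ribosomal protein gene on chromosome 14 (24487125 to 24496959) whose last exons are known to be alternatively spliced. It changed its transcript use over the KO step, while the KO groups overlapped in its total after TMM scaling. Rps24-202 held 1.49%, 1.25% and 1.01% of the Rps24 TPM in preCFU-E KO against 19.5%, 22.3% and 23.1% in preMegE KO, and 0.173%, 0.117% and 0.149% in preCFU-E WT against 5.02%, 4.27% and 5.91% in preMegE WT. Rps24-201 held 93%, 93.6% and 93.7% in preCFU-E KO against 75.7%, 73.3% and 73.3% in preMegE KO. The gene had 625, 682 and 598 CPM in preCFU-E KO against 567, 676 and 682 CPM in preMegE KO, which overlap. The KO change passed (gene adjusted p = 4.01e-09 by diffSpliceDGE) in all 12 fits that left out a library, and the difference between the KO and the WT step did not (gene adjusted p = 0.918). That test is on a log scale; in percentage points the KO change of Rps24-202 minus its WT change was -15.5, which has no test of its own.

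Rps24-201 and Rps24-202 both enter the exon printed here, so neither model skips it, and their ends part within it. In GRCm38 it lies at chr14:24495430-24495449 on the plus strand, is 20 bases long, and opens with the stop codon, in capitals, that both models use.
Rps24 exon: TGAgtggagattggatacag
In Rps24-202, which has 6 exons, the whole exon is joined to a last exon of 71 bases. The model of Rps24-201, which has 5 exons, ends 3 bases into it, at the stop codon, and both models share exons 2, 3 and 4. The first exon of Rps24-201 starts at 24490681 and that of Rps24-202 at 24490718.

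The change in transcript use differed between the KO and the WT step in 51 of 9988 genes (0.511%). Of these, 26 were also among the 148 genes of the KO step. The count was 24 without preMegE WT 2, 33 without preMegE WT 3, 33 without preCFU-E KO 1, 28 without preCFU-E KO 2 and 79 without preMegE KO 3. Tceanc2 was called in both tests and in all 12 fits that left out a library (gene adjusted p of the difference 0.00651): Tceanc2-204 held 32.3%, 56.7% and 58.1% in preCFU-E WT against 37.8%, 17.5% and 37.4% in preMegE WT. Pkm and Ptbp1 were not called in either test.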

How the data were processed

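RNA-seq of sorted bone marrow progenitors was read from the deposited Salmon tables, which hold the authors' estimated counts and TPM per transcript. Salmon 0.12.0 and the builds GRCm38.p6 and mm10 are named per the submitters' processing notes; the kit, Ovation RNA-Seq V2, is named per the labels, and neither source says whether reads were counted by strand.

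Estimated counts were summed per gene (GENCODE M21; 136176 of 136288 transcripts matched) and rounded, since 82.5% of nonzero values in the median library were not whole (tolerance 0.001). The 12 progenitor libraries were fitted together with 4 group means in edgeR 4.0.16 (R 4.3.3; TMM, filterByExpr, robust quasi-likelihood, 8 residual degrees of freedom; 17159 genes). Contrasts were the KO step, the WT step and their difference, with Benjamini-Hochberg adjusted p under 0.05. The 6 stem cell libraries entered 1 alternative only. Transcript use was tested with diffSpliceDGE over transcripts with at least 5% of a gene's TPM; shares are percent of the deposited TPM. The code was tested on simulated data. P-values measure the spread between libraries labelled biological replicates, and their number limits the precision.

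Alternatives were RLE factors, library totals, DESeq2 1.42.0, limma 3.58.1 voom, 2 other filters, length-scaled counts, protein-coding genes only, 1 genotype at a time, a minimum fold, a replicate block and each library left out. The comparison and the 41 gene lists were chosen with earlier results of these data known. Named genes are the 12 largest called changes each way among protein-coding genes whose log2 CPM averaged 2 or more and whose groups were separate, fixed key genes of each list, up to 4 further called members each way by level, and up to 6 genes per transcript-use test; others are said to be chosen after their values were seen. The deviations of same-numbered libraries from their group means correlated at 0.0333 to 0.0824 in KO, below the 0.1 set for pairing, and at 0.326, 0.106 and 0.25 in WT, above it. The numbers thus pair the WT libraries by this check and not the KO libraries. All contrasts were fitted without the replicate block, which moved no count of calls by over 1.5 times.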

Additional observations from a re-analysis of the deposited data

Results flagged for a closer look

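Each value here is a change over the KO step minus the same change over the WT step, and each comes from a difference that passed its test. For transcript use, 51 genes passed. Those shown had the largest shifts in share among the ones with a mean gene CPM of at least 10. The size of these shifts is therefore set in part by the choice. For Ptbp2 the difference was 1.56 on the log2 scale, with 3 of 3 preCFU-E KO libraries above the preMegE KO libraries and 3 of 3 preCFU-E WT libraries below the preMegE WT libraries. The other values are differences in transcript share, in percentage points. For Rhno1-207 it was 80.4: the shares were 82.6%, 40.8% and 54.5% in preCFU-E KO and 55.5%, 13.9% and 30.8% in preMegE KO, against 0% in all 3 preCFU-E WT libraries and 57%, 72.6% and 34% in preMegE WT. It was called in 12 of 12 fits that left out a library.

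For Plek-202 the difference was 84.9, but preCFU-E libraries held few reads of the gene (74, 18 and 38 in KO, 112, 44 and 33 in WT), and the call remained in 4 of 12 such fits. For Hacl1-202 it was 86.9, called in 2 of 12. For Sphk1-211 it was -93.2, called in 3 of 12, on 5, 9 and 43 reads in preMegE KO and 63, 37 and 30 reads in preMegE WT. For Rmdn2-208 it was -48.8 and for Primpol-208 it was -40.5, each called in 2 of 12. The part of low depth in these shares was not tested.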

How the results depend on the processing

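The KO step had 9740 called genes and 7775 to 10087 in the other fits at the same threshold, 8166 to 9653 without single KO libraries, and 5227 when the change had to exceed 1.5-fold. The WT step had 7692 calls and 5779 to 8429 in its alternatives. The step difference had 1 call, with 8 by DESeq2, 0 with all 18 libraries, 0 with length-scaled counts, 89 with no filter beyond 1 read, and 1 to 2 without single libraries. Transcript use in the KO step had 148 calls, 88 with a minimum shift of 20 points, and 88 to 184 without single libraries. Its difference between the steps had 51 calls, 22 with a 10% share minimum, 25 with a shift of 20 points, and 24 to 79 without single libraries. The cause of these shifts was not tested, apart from the stricter limits, which by construction call fewer genes.

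With the replicate number as a block, the KO step had 10087 calls, the WT step 8429, the step difference 1, the KO step transcript usage 121 and the step difference transcript usage 39. In each genotype every library correlated best with its own number, a hint from the data and not from the design.

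Of 137 named genes with a call, 101 lost none under up to 18 alternatives. Of 2466 values, 2319 kept their call, 142 lost it and 5 changed sign. By library totals alone, which were added after seeing the data, Ireb2 was at -0.01, Rpl10 at -0.01, Eef1a1 at -0.03 and Hnrnpl at -0.07 on the log2 scale. With length-scaled counts Bnip3l was at 0.07. Without preMegE KO 1, edgeR's adjusted p of the KO step was 0.212 for Ccng1, 0.205 for Ulk1 and 0.172 for Hnrnpc. Depth limits genes near 1 CPM, such as the globins and Alas2.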
